A study of Mus musculus with 6 samples.

Results

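The insulin-like growth factor family was followed in sorted bone marrow cells of leukemic mice through 10 genes, chosen by name. They comprised the ligands Igf1 and Igf2, the receptors Igf1r and Igf2r, and the binding proteins Igfbp2, Igfbp3, Igfbp4, Igfbp5, Igfbp6 and Igfbp7. All 10 were measured, each by 1 probe set that carries a single gene symbol, among 22180 genes so measured. The samples were 3 arrays of mice with acute myeloid leukemia (AML) and 3 of mice with the chronic form (CML). Both groups had the Col2.3 GFP genotype, a transgene whose Col1a1 promoter fragment drives green fluorescent protein in cells that form bone. The labels name the tissue as bone marrow and the cells as osteoblastic in both groups, while the sample titles call them stromal cells. They give no age, no leukemia model and no agent. Every direction here follows the sample titles, since the source name field calls all 6 samples CML. Marrow without leukemia was not analysed here. The labels do not state whether each sample was a mouse of its own, and p-values therefore cover only the spread among these arrays, which could be technical.

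Insulin-like growth factors are secreted peptides that act through IGF1R, a receptor tyrosine kinase whose signal runs through adaptor proteins to PI3 kinase and AKT. IGF2R, which is also the cation-independent mannose 6-phosphate receptor, takes IGF2 up for degradation, and secreted binding proteins hold the ligands in serum and in matrix until proteases release them. In bone, osteoblasts make IGF1 and deposit growth factors with binding proteins in the matrix, and IGF1 supports the formation of bone.

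The osteoblast and leukocyte check genes, Col1a1 and Ptprc, lay above the median gene on every array. The osteoblast marker Bglap, picked for mention with its values known, did not. It lay below the median gene on AML 3 (3.31) and CML 2 (4.25) and above it on the other arrays. Col1a1, the main collagen of bone, had log2 intensities of 8.63, 9.87 and 7.26 on AML 1, 2 and 3, and of 10.22, 8.71 and 11.95 on CML 1, 2 and 3. The pan-leukocyte marker Ptprc had 9.30, 9.0 and 8.17 on the AML arrays and 8.27, 4.96 and 6.16 on the CML arrays. Of 8 leukocyte markers all were higher in AML by value and 2 passed, and 6 of 6 granulocyte precursor markers passed as higher in AML. All 9 measured osteoblast markers were lower in AML by value and none passed (limma, adjusted p over all genes). Over all genes 38.3% were higher and 61.7% lower in AML by value, while 1.83% passed as higher and 0.0812% as lower. Of 8 macrophage markers 3 were higher and 5 lower by value, with a median log2 change of -0.27, and 1 passed as higher (Cd68, named after its values were seen). None of 8 perivascular stroma, 8 endothelial, 6 chondrocyte or 4 megakaryocyte markers passed. No array held a value of 0, and the median log2 intensity over all genes was 4.38 to 4.48 on the AML arrays and 4.47 to 4.64 on the CML arrays. No detection p-value was used, so whether a dim signal stood above background was not tested. In bulk samples, fewer cells of a type and less RNA per cell cannot be told apart.

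Igf1r rose in AML, and it was 1 of the 10 members past an adjusted p of 0.05 in limma, where 1.91% of all genes passed (1.83% as higher and 0.0812% as lower). At an unadjusted p under 0.05 stood 3 members, Igf1r and Igfbp4 as higher and Igfbp2 as lower, against 21.5% of all genes (12.6% higher and 8.99% lower). The arrays of the groups did not overlap for 2 members, Igf1r as higher and Igfbp2 as lower, against 31.3% of all genes (13.3% higher and 17.9% lower). With only 10 members, the share without overlap was not tested against that of all genes and is not read as different from it. By value 5 members were higher in AML and 5 lower, against 38.3% and 61.7% of all genes. Their median log2 change, AML minus CML, was 0.048, beside -0.11 over all genes.

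Upstream sequences are shown for the receptor that changed, for its ligand and for the binding protein with the largest positive estimate. The 3 windows differ in their share of G and C and in the letters searched. Each run gives the 250 bases before the annotated start, 5′ to 3′ on the gene's own strand, from RefSeq on GRCm38.p6. Capitals mark the GC box letters GGGCGG and the TATA box letters TATAAA, searched on both strands. The windows are chr7:67952007-67952256 for Igf1r, chr10:87860861-87861110 for Igf1 and chr11:99040994-99041243 for Igfbp4, all on the plus strand.
Igf1r: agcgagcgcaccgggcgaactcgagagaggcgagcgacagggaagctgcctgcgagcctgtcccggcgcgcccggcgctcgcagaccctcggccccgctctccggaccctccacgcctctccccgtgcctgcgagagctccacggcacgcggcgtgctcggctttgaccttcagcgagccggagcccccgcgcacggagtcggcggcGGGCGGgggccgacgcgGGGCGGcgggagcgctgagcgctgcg
Igf1: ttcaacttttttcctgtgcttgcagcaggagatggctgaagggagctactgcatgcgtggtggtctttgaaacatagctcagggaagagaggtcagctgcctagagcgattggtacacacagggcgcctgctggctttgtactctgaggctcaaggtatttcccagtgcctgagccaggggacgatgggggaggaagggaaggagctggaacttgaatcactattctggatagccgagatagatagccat
Igfbp4: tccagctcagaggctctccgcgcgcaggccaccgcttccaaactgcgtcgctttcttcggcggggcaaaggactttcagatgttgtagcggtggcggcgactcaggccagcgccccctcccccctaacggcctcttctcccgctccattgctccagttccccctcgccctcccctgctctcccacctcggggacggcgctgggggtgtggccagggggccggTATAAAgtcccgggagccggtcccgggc

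The Igf1r window was 77.6% G and C, against a median of 52.4% over 32851 promoter windows of the same length, and it held GGGCGG starting 43 and 26 bases before the start and no TATAAA. The Igf1 window was 52.8% G and C and held neither run of letters. The Igfbp4 window was 69.2% G and C and held TATAAA starting 28 bases before the start. Over all windows 32.7% held GGGCGG and 12.4% held TATAAA. These matches describe the letters and do not show binding.

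**Figure D1:**
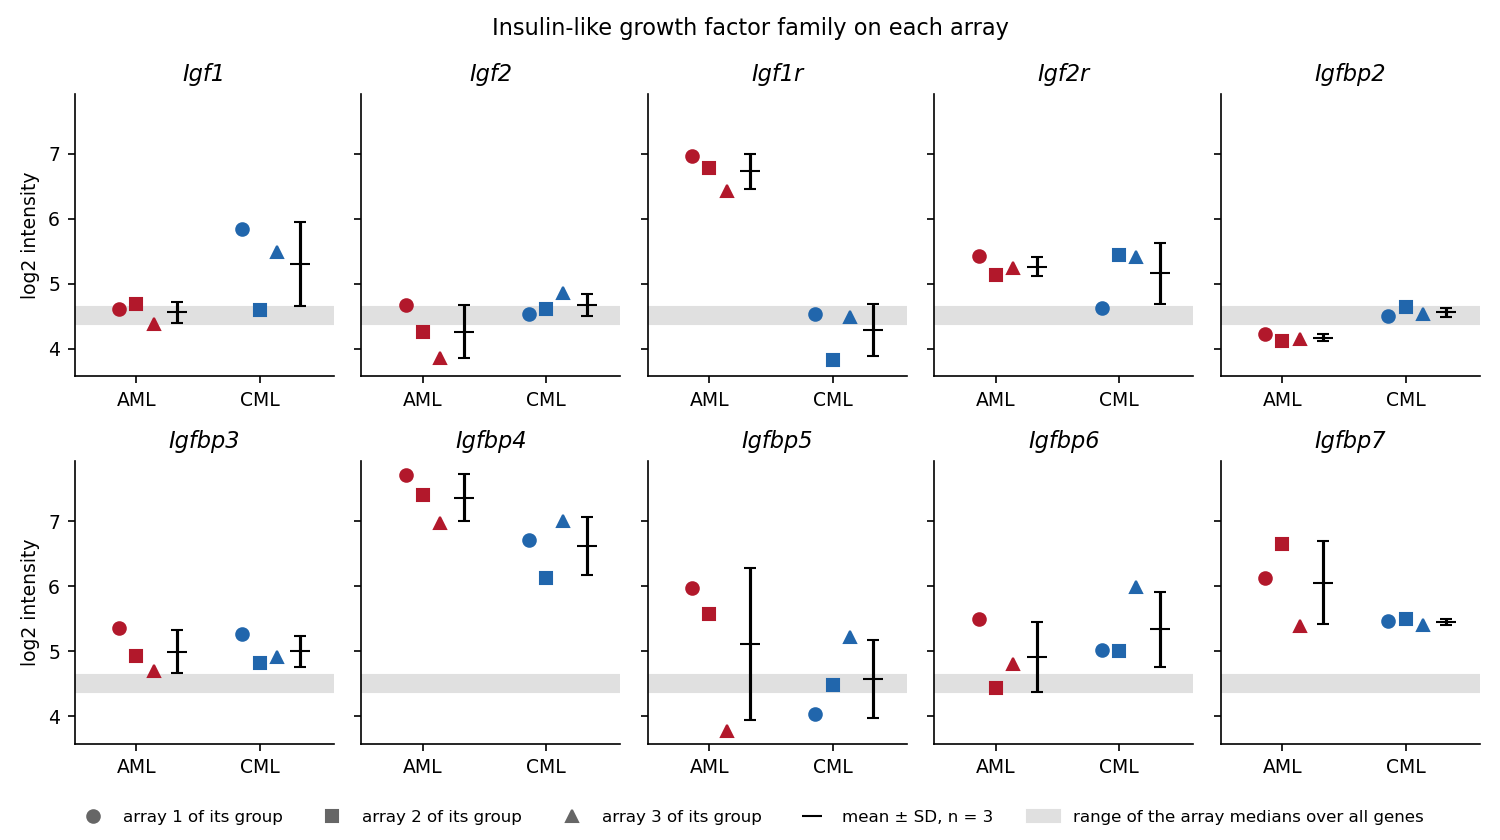
Log2 intensity of each of the 10 family members on each array, AML left and CML right in every panel, with the mean ± SD of 3 arrays beside the points and the range of the array medians over all genes as a grey band. The AML points of Igf1r lie between 6.43 and 6.97 and its CML points between 3.82 and 4.54, while most other members overlap between the groups.

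Igf1r (probe set 17479099, chromosome 7), the receptor that transmits the signal of both ligands, had log2 intensities of 6.97, 6.78 and 6.43 on AML 1, 2 and 3, against 4.54, 3.82 and 4.49 on CML 1, 2 and 3. Every AML array lay above every CML array, with 1.89 between the lowest AML value and the highest CML value. The AML mean was 6.73 ± 0.27 and the CML mean 4.28 ± 0.40 (SD, n = 3 per group), a 5.43-fold difference. Its log2 change was 2.44 ± 0.25 (SE; 95% interval 1.85 to 3.04; limma adjusted p = 0.0203), and 35 of all genes had a lower p. Each CML value was below the median gene of its own array, and each AML value was above the upper quartile of its array, which ran from 6.0 to 6.13 in AML.

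The size of the Igf1r change varied little in the settings that could move it, while its call did not hold in all of them. There were 10 other ways of processing all 6 arrays. The log2 change was 2.36 after quantile normalization, 2.57 after median centring, 2.34 after cyclic loess and 2.46 with array weights. The rest of the 10 left it at 2.44 by design and do not test its size. With 1 array left out it lay between 2.21 and 2.59. Igf1r passed in 8 of those 10 settings and in 3 of 6 fits with 1 array left out. The settings on probe set choice reused the same Igf1r values, since it has 1 probe set. The adjusted p in limma was 0.0931 without AML 1, 0.124 without AML 2 and 0.0696 without CML 3. With a floor of 8 set before taking logs, the adjusted p in limma was 0.0721, and with the replicate block it was 0.0980. Without AML 1, AML 2 or CML 3, and with the replicate block, 0 of all 22180 genes passed. With the floor of 8, 37 did.

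**Figure D2:**
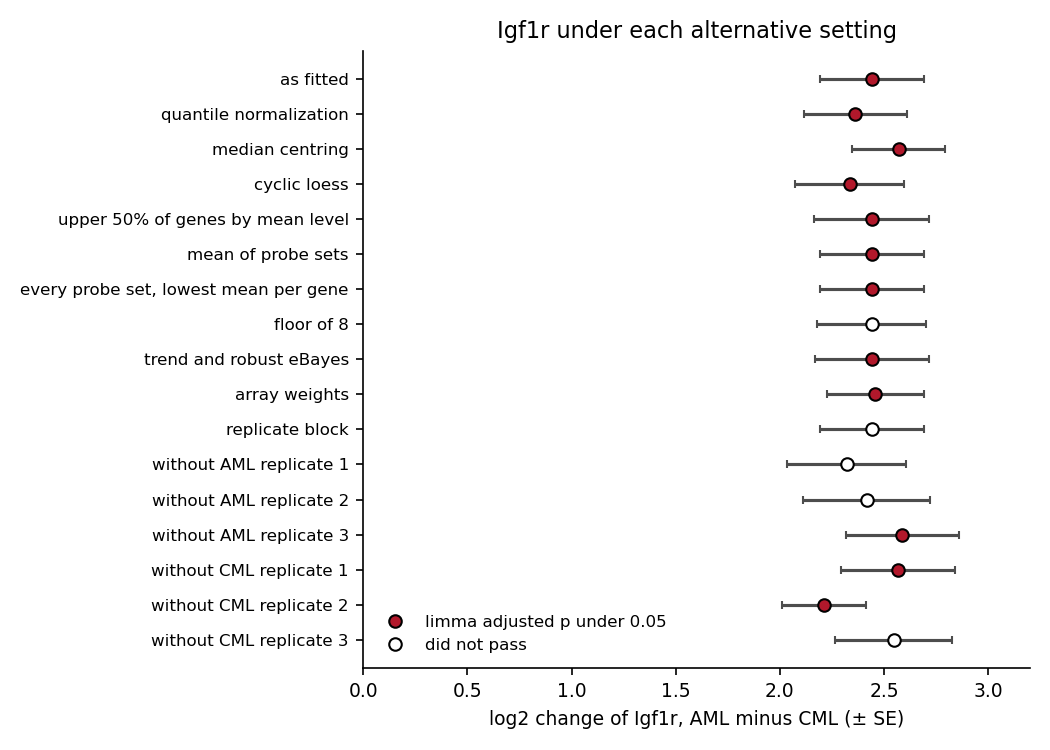
Log2 change of Igf1r, AML minus CML, with its standard error under each setting. All estimates lie between 2.21 and 2.59, and filled points passed an adjusted p of 0.05 in limma.

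Summed levels of leukocyte and granulocyte precursor markers were higher on every AML array than on every CML array, as Igf1r was. The summed linear intensity of the 8 leukocyte markers was 3926 to 6841 on the AML arrays and 1129 to 3521 on the CML arrays. For the 6 granulocyte precursor markers it was 4685 to 10944 in AML and 663.5 to 941 in CML. The sum of the 8 macrophage markers, a list of mixed direction, was 386 to 930 in AML and 274 to 327 in CML. CML 1 had a leukocyte sum of 3521 and an Igf1r level of 4.54, against 3926 and 6.43 on AML 3. CML 2 had the lowest leukocyte sum, 1129, and the lowest Igf1r level, 3.82. The part of these marker levels in the Igf1r result was not tested.

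Igf2r (probe set 17340845, chromosome 17), the receptor that clears IGF2, had log2 intensities of 5.42, 5.13 and 5.23 on AML 1, 2 and 3, against 4.62, 5.44 and 5.41 on CML 1, 2 and 3. The groups overlapped, and CML 1 was the lowest of the 6 arrays. The log2 change was 0.10 ± 0.25 (SE; 95% interval -0.49 to 0.70; limma adjusted p = 0.806), and without CML 1 it was -0.16. Whether the change of Igf1r differs from that of Igf2r was not tested.

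Both ligands were lower in AML by value and neither passed. Igf1 (probe set 17236288, chromosome 10), the growth factor that osteoblasts secrete, had log2 intensities of 4.60, 4.68 and 4.38 on AML 1, 2 and 3, against 5.83, 4.59 and 5.48 on CML 1, 2 and 3. CML 1 and CML 3 were above all AML arrays, and CML 2 lay among them. The log2 change was -0.75 ± 0.32 (SE; 95% interval -1.51 to 0.016; limma adjusted p = 0.238). Without CML 2 it was -1.10 (limma adjusted p = 0.0542), and without CML 1 it was -0.48 (limma adjusted p = 0.368).

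Osteoblast marker levels also set CML 2 apart from the other CML arrays. The summed linear intensity of the 9 measured osteoblast markers was 2962, 5609 and 1491 on AML 1, 2 and 3, and 6387, 3078 and 14127 on CML 1, 2 and 3. The 2 arrays with the highest sums, CML 3 and CML 1, were also those with the highest Igf1 levels. AML 2 had a sum of 5609 and an Igf1 level of 4.68, against 6387 and 5.83 on CML 1. The part of osteoblast content in the Igf1 values was not tested.

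Igf2 (probe set 17498142, chromosome 7), the ligand that is expressed from the paternal allele, had log2 intensities of 4.67, 4.25 and 3.85 on AML 1, 2 and 3, against 4.54, 4.61 and 4.86 on CML 1, 2 and 3. AML 1 lay within the CML range and the other AML arrays below it. The log2 change was -0.41 ± 0.23 (SE; 95% interval -0.96 to 0.14; limma adjusted p = 0.323), at levels close to the median gene of the arrays. Without AML 1 it was -0.61, and without AML 3 it was -0.21.

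**Figure D3:**
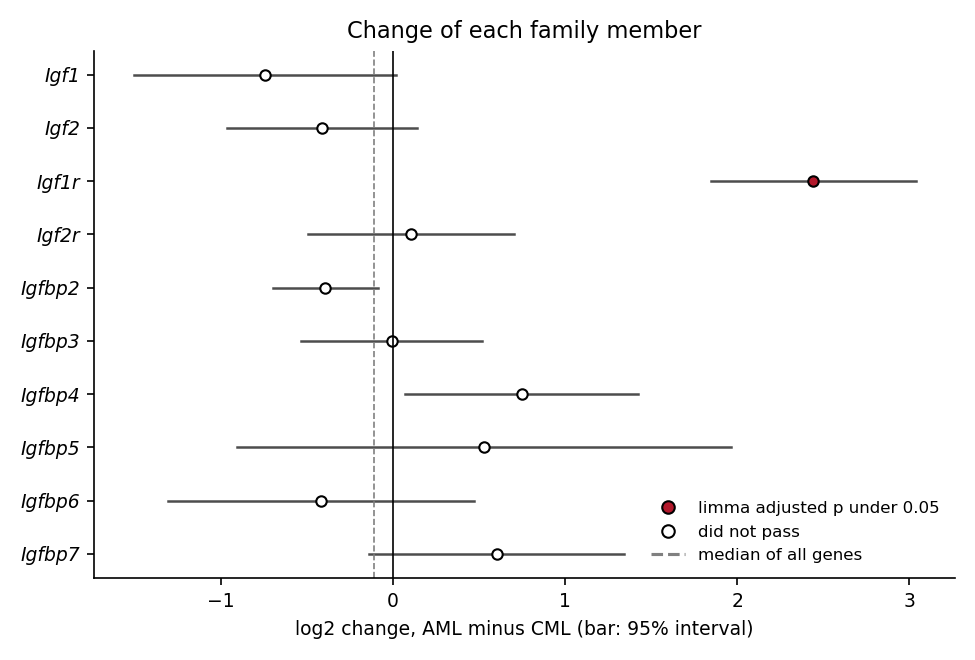
Log2 change of each member, AML minus CML, with its 95% interval from limma, and the median of all genes as a dashed line. The interval of Igf1r runs from 1.85 to 3.04, and the others lie between -1.51 and 1.96.

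Among the binding proteins none passed, and their estimates pointed both ways. Igfbp4 (probe set 17256264, chromosome 11), a soluble inhibitor of IGF action that osteoblasts secrete, had log2 intensities of 7.70, 7.41 and 6.97 on AML 1, 2 and 3, against 6.72, 6.13 and 7.0 on CML 1, 2 and 3. AML 3 was just below CML 3, and the other AML arrays lay above all CML arrays. Its log2 change was 0.75 ± 0.28 (SE; 95% interval 0.068 to 1.43; limma adjusted p = 0.206). Quantile normalization brought that change to 0.33.

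Igfbp2 (probe set 17214106, chromosome 1), which binds IGF2 with preference, had log2 intensities of 4.23, 4.12 and 4.14 on AML 1, 2 and 3, against 4.50, 4.64 and 4.54 on CML 1, 2 and 3. All AML values lay below all CML values and below the median gene of their arrays. Its log2 change was -0.39 ± 0.13 (SE; 95% interval -0.70 to -0.089; limma adjusted p = 0.161). The SD over 3 arrays was 0.055 for AML and 0.073 for CML, so the difference was larger than the spread between replicates without passing the adjusted threshold. After cyclic loess it was -0.20.

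Igfbp5 (probe set 17224180, chromosome 1), a binding protein held in bone matrix, varied more within the groups than between them. It had log2 intensities of 5.97, 5.57 and 3.77 on AML 1, 2 and 3, against 4.03, 4.48 and 5.22 on CML 1, 2 and 3. AML 3 was the lowest of all arrays, and the log2 change was 0.53 ± 0.60 (SE; 95% interval -0.91 to 1.96; limma adjusted p = 0.590). Without AML 3 the change was 1.19, and without AML 1 it was 0.095.

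The 3 arrays with the highest Igfbp5, AML 1, AML 2 and CML 3, were also the 3 with the highest levels of perivascular stroma markers. The summed linear intensity of the 8 markers was 441, 427.5 and 199 on AML 1, 2 and 3, and 207, 196 and 304 on CML 1, 2 and 3. Lepr, a defining marker of that stroma, was at log2 intensities of 4.06, 3.74 and 2.84 on the AML arrays and 2.80, 2.89 and 3.36 on the CML arrays, below the median gene of each array. Cxcl12, the chemokine of that stroma, had 7.82, 8.15 and 6.47 on the AML arrays and 6.53, 6.32 and 6.84 on the CML arrays. Both markers were picked for mention with their values known, and the list was mixed. Of the 8 markers 5 were higher in AML by value and 3 lower. Pdgfrb was lower on CML 3 (4.90) than on AML 3 (5.11). Vcam1 had 4.09 on AML 2 and 4.05 on CML 3, below 4.17 on CML 2. Pdgfrb and Vcam1 were also picked with their values known. Whether stromal content set the Igfbp5 level was not tested.

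**Figure D4:**
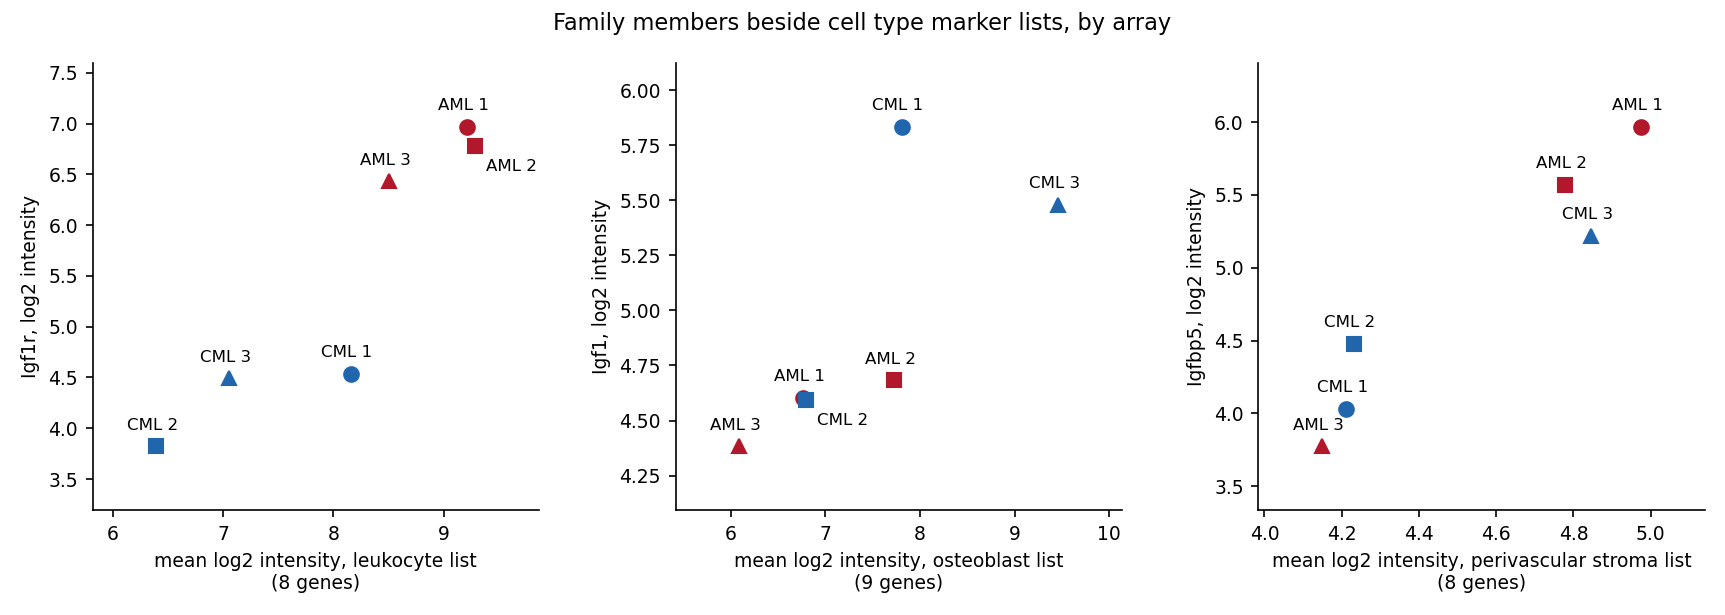
Log2 intensity of Igf1r, Igf1 and Igfbp5 on the vertical axes against the mean log2 intensity of the leukocyte, osteoblast and perivascular stroma markers on the horizontal axes, 1 point per array. The AML arrays lie above the CML arrays for both Igf1r and leukocyte markers, and AML 1, AML 2 and CML 3 are high for both Igfbp5 and stromal markers.

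Igfbp7 (probe set 17449084, chromosome 5), a matrix and vessel wall protein that binds these growth factors weakly, had log2 intensities of 6.12, 6.65 and 5.39 on AML 1, 2 and 3, against 5.46, 5.49 and 5.40 on CML 1, 2 and 3. The AML arrays spread with an SD of 0.63 and the CML arrays with an SD of 0.045, and AML 3 lay just below all CML arrays. The log2 change was 0.60 ± 0.31 (SE; 95% interval -0.14 to 1.34; limma adjusted p = 0.293). Without AML 3 it was 0.93, and without AML 2 it was 0.30.

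Igfbp6 and Igfbp3 did not separate the groups. Igfbp6 (probe set 17315305, chromosome 15), which binds IGF2 over IGF1, had log2 intensities of 5.50, 4.44 and 4.80 on AML 1, 2 and 3, against 5.01, 4.99 and 5.99 on CML 1, 2 and 3, a change of -0.42 ± 0.37 (SE; 95% interval -1.31 to 0.47; limma adjusted p = 0.496). Without CML 3 the change was -0.090, and without AML 1 it was -0.71. Igfbp3 (probe set 17260474, chromosome 11), the main carrier of IGFs in serum, had 5.35, 4.93 and 4.69 on the AML arrays and 5.27, 4.82 and 4.91 on the CML arrays. Its change of -0.0085 ± 0.22 (SE; 95% interval -0.53 to 0.52; limma adjusted p = 0.984) had no stable direction, being 0.12 after median centring of the arrays.

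The AML arrays differed in level across the family, and AML 3 was the lowest of them for 7 members. These were Igf1, Igf2, Igf1r, Igfbp3, Igfbp4, Igfbp5 and Igfbp7. The share of all genes with AML 3 as the lowest AML array was not computed, so the count is not read as particular to the family. The median gene was at 4.41, 4.48 and 4.38 on AML 1, 2 and 3, and the upper quartile at 6.01, 6.0 and 6.13. The summed linear intensity of the 10 members was 663, 577 and 412 on AML 1, 2 and 3, and 387, 328 and 463 on CML 1, 2 and 3. AML 3 also had the lowest osteoblast sum of the 6 arrays and the highest sum of the 4 measured megakaryocyte markers, 2736, against 181 on AML 1, 703 on AML 2 and 179 to 403 on the CML arrays. The part of these differences in the family's levels was not tested.

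Of 55 further genes of the pathway, 48 were measured, and none passed in limma. At an unadjusted p under 0.05 stood 10 of them as higher and 6 as lower in AML, and the arrays of the groups did not overlap for 19 of the 48, beside 12.6% as higher, 8.99% as lower and 31.3% without overlap over all genes. The median log2 change was -0.076, beside -0.11 over all genes. The rest of the 55 were not analysed here.

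**Figure D5:**
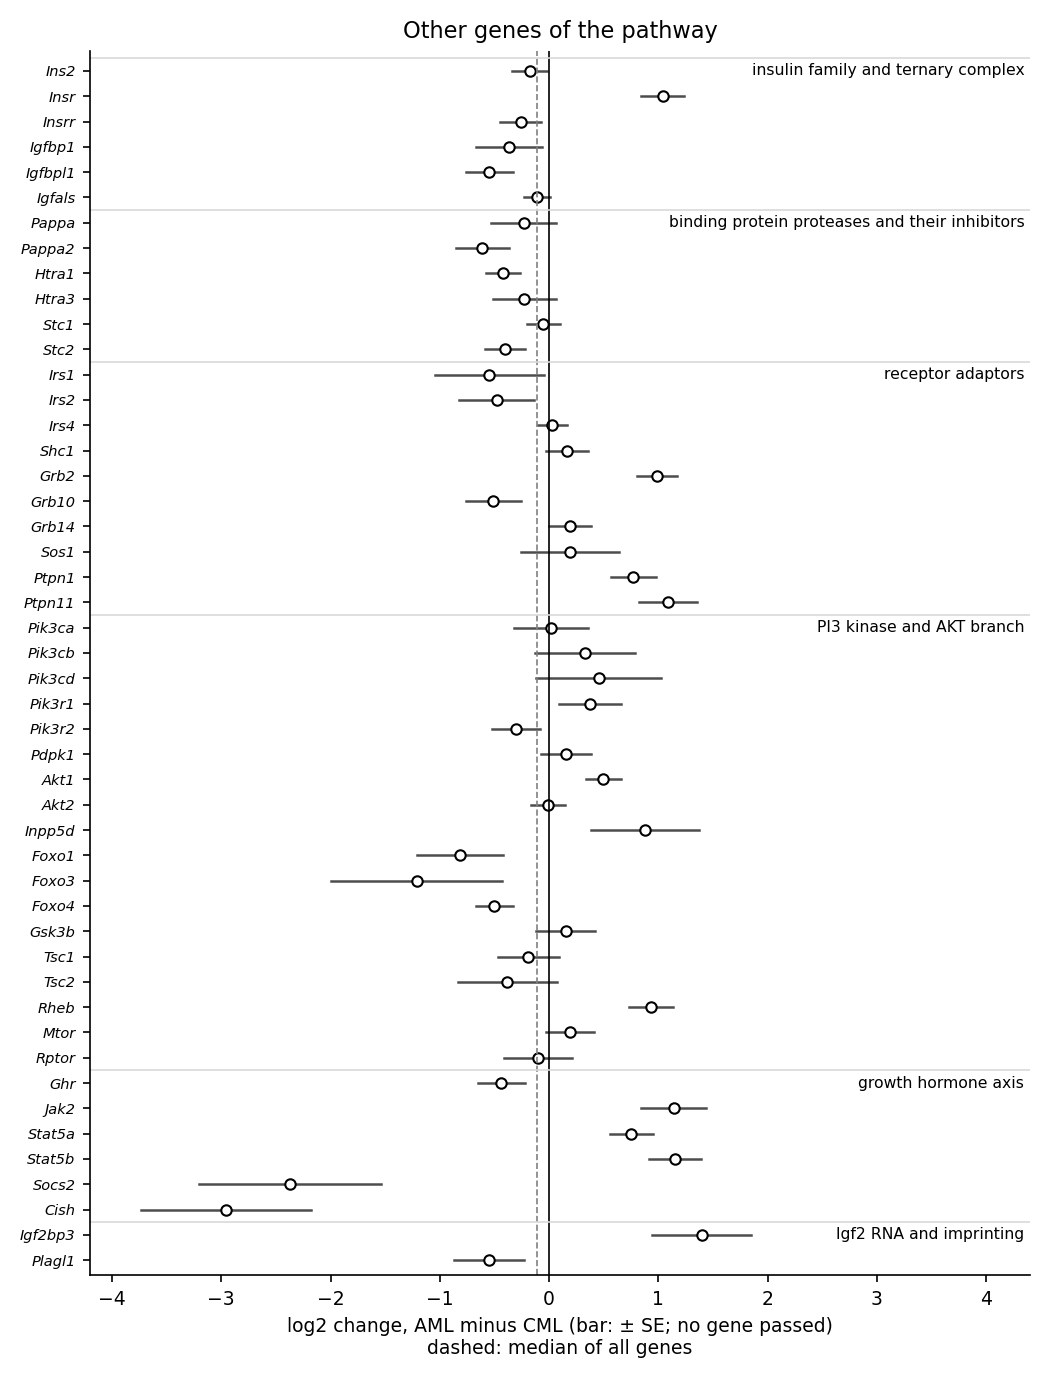
Log2 change, AML minus CML, of the 48 measured pathway genes outside the family with its standard error, by list, and the median of all genes as a dashed line. No gene passed the adjusted threshold, and the estimates run from -2.96 for Cish to 1.40 for Igf2bp3.

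Among the insulin family and its partners, the insulin receptor was the 1 gene of 6 that was higher in AML by value. Insr, the receptor closest in kind to IGF1R, had log2 intensities of 6.49, 6.28 and 6.49 on AML 1, 2 and 3, against 5.55, 5.59 and 5.0 on CML 1, 2 and 3, without overlap. Its log2 change of 1.04 ± 0.20 (SE; 95% interval 0.57 to 1.51) did not pass (limma adjusted p = 0.0568), though it did after median centring (limma adjusted p = 0.0496) and with array weights (0.0423). After quantile normalization the change was 0.84 (limma adjusted p = 0.163). The other 5 were Ins2, Insrr, Igfbp1, Igfbpl1 and Igfals, with log2 changes between -0.55 and -0.11. These were dim, with mean log2 levels of 3.31 to 3.94 over the 6 arrays, below the median gene of each array.

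All 6 binding protein proteases and their inhibitors were lower in AML by value, a direction that 61.7% of all genes shared by value. Htra1, a secreted serine protease that cleaves binding proteins, had the lowest p of them, with log2 intensities of 4.11, 4.01 and 3.72 on AML 1, 2 and 3, against 4.41, 4.29 and 4.41 on CML 1, 2 and 3. The change was -0.42 ± 0.15 (SE; limma adjusted p = 0.196), and it was -0.25 after quantile normalization and -0.20 after cyclic loess. The median of the list was -0.32. Most of the list was dim. Htra3, named with its values known, had a mean log2 level of 4.93 over the 6 arrays. The other means ran from 3.15 to 4.22, below the median gene of each array. The lower quartile of all genes was 3.28 to 3.36 on the AML arrays and 3.46 to 3.59 on the CML arrays. Its part in the direction of dim genes was not tested.

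Of 10 receptor adaptors and phosphatases, 7 were higher by value and 3 lower, with a median of 0.18. Grb2, the adaptor that links receptor tyrosine kinases to RAS, had log2 intensities of 7.99, 8.07 and 7.95 on AML 1, 2 and 3, against 7.32, 7.03 and 6.70 on CML 1, 2 and 3. The groups did not overlap, and the change was 0.99 ± 0.19 (SE; limma adjusted p = 0.0550). Without CML 1 it was 1.14 and passed (limma adjusted p = 0.0440), while it was 0.60 after quantile normalization and 0.55 after cyclic loess (limma adjusted p = 0.209 and 0.234). The insulin receptor substrates Irs1 and Irs2, the docking proteins of this receptor family, overlapped between the groups at -0.55 ± 0.50 and -0.48 ± 0.34 (SE; limma adjusted p = 0.505 and 0.409); both were picked for mention with their values known.

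In the PI3 kinase and AKT branch 10 genes were higher by value and 8 lower, with a median of 0.084. Rheb, the small GTPase that activates mTORC1, had the lowest p, at 7.24, 6.98 and 7.41 on AML 1, 2 and 3, against 6.34, 6.54 and 5.95 on CML 1, 2 and 3. Its arrays did not overlap, and the change was 0.93 ± 0.20 (SE; limma adjusted p = 0.0772). It was 0.60 after quantile normalization and 0.57 after cyclic loess. Foxo1, a transcription factor that AKT keeps out of the nucleus, was picked for mention with its values known. It was at -0.82 ± 0.39 (SE; limma adjusted p = 0.273) and passed as lower without CML 2, at -1.29 (limma adjusted p = 0.0417).

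The growth hormone axis drives Igf1 transcription through the kinase JAK2 and the STAT5 factors, which also serve many blood cytokine receptors. All 6 of its genes were without overlap between the groups, 3 higher and 3 lower in AML, beside 31.3% of all genes without overlap, and none passed. The gap was narrowest for the receptor gene Ghr, at 0.016 on the log2 scale. Its values of 3.24 to 4.31 were below the median gene of each array. Stat5b, the gene with the lowest p, had log2 intensities of 6.47, 6.89 and 7.27 on AML 1, 2 and 3, against 5.65, 5.56 and 5.97 on CML 1, 2 and 3, a change of 1.15 ± 0.24 (SE; limma adjusted p = 0.0679). It passed after median centring (limma adjusted p = 0.0411) and was 0.84 after quantile normalization (limma adjusted p = 0.166).

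The further genes of this axis were picked for mention with their values known. Jak2 and Stat5a were higher by value at 1.14 ± 0.29 and 0.75 ± 0.20, and Ghr, the growth hormone receptor, was lower at -0.44 ± 0.21 (SE; limma adjusted p = 0.111, 0.114 and 0.279). The feedback inhibitors that STAT5 induces stood on the other side of 0 from the kinase. Cish had log2 intensities of 5.94, 6.57 and 8.55 on AML 1, 2 and 3, against 8.92, 10.99 and 10.02 on CML 1, 2 and 3, a change of -2.96 ± 0.78 (SE; limma adjusted p = 0.113). Socs2 had 3.86, 4.86 and 4.49 on the AML arrays and 8.81, 5.66 and 5.84 on the CML arrays, a change of -2.37 ± 0.83 (SE; limma adjusted p = 0.184). CML 1 stood 2.97 above the next array for Socs2.

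Of the Igf2 RNA and imprinting list, 2 of 5 genes were measured. Igf2bp3, an RNA-binding protein named for its binding to Igf2 messenger RNA, had log2 intensities of 7.18, 5.72 and 5.33 on AML 1, 2 and 3, against 4.67, 4.71 and 4.67 on CML 1, 2 and 3. All AML arrays lay above the CML arrays, AML 1 furthest, and the change was 1.40 ± 0.45 (SE; limma adjusted p = 0.162). Without AML 1 it was 0.85. Plagl1, an imprinted zinc finger gene and the other one measured, was at -0.55 ± 0.32 (SE; limma adjusted p = 0.332); it was picked for mention with its values known.

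Genes with a profile close to that of Igf1r were sought over the 6 arrays among 2059 genes above the median level and with an SD of at least 0.5 times its own. Likeness was the root-mean-square difference of log2 values after each gene's mean was subtracted. The nearest were Flna, Ap3s1 and Rab32, at 0.11, 0.13 and 0.14. Flna, the actin cross-linker filamin A, had log2 intensities of 9.34, 9.10 and 8.73 on AML 1, 2 and 3, against 6.68, 6.33 and 6.86 on CML 1, 2 and 3. For Igfbp4, the member whose probe set had the highest mean signal, the nearest of 8031 genes were Cemip2, Marveld1 and Zfp729a, at 0.041, 0.096 and 0.12. The 6 arrays fall into the 2 leukemia groups, and Igf1r and Flna both lie higher on all AML arrays, so a close profile includes that difference between the groups.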

How the data were processed

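RNA of 6 samples was measured on 1 Affymetrix array each, per the labels' protocols. The deposited table holds linear intensity values of 39721 probe sets. Among tools, limma and lumi are listed per the submitters' processing notes. Background correction, summarisation and array scaling are not given in the sources used here. Precision is limited by how few arrays there are. Platform annotation paired 23521 probe sets with 1 symbol, 1814 with several and 14386 with none. Genes with several such probe sets were represented by the brightest on average. Chromosomes came from a RefSeq table of GRCm38.p6, matched by Entrez identifier.

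Log2 intensity, with a floor of 1 that no value reached, was fitted over all 22180 genes in limma 3.58.1 under R 4.3.3 (lmFit and eBayes, no covariate), two-sided, AML minus CML, with Benjamini-Hochberg adjusted p under 0.05 as the threshold. Steps were tested on simulated data, with 50 genes changed by each size. Of genes with a true log2 change of 1, 16% were called, of those with 2, 78%, and of those with 3, 98%. False calls numbered 8. A gene that did not pass may therefore still differ. Named genes were the 10 members, Col1a1, Ptprc, of each pathway list the genes past the threshold or else that with the lowest p, and the 3 nearest in profile to the members with the lowest p and the highest mean; others are marked in the text as picked with their values known. The members and lists were chosen with earlier results of these data known. Alternatives covered scaling, a level filter, probe set choice, the floor, moderation options, array weights, a block for replicate number and leaving out single arrays. Figures were drawn with matplotlib 3.10.9.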

Additional observations from a re-analysis of the deposited data

How the results depend on the processing

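The count of all genes past the threshold was 423 as fitted. It was 66 after quantile normalization, 823 after median centring, 49 after cyclic loess, 37 with a floor of 8 and 639 with array weights, with 92.4%, 97.4%, 93.9%, 75.7% and 93.6% of the calls higher in AML, against 95.7% as fitted. With 1 array left out it ran from 0 to 438, and it was 0 without AML 1, AML 2 or CML 3 (limma gave 3048, 3750 and 3533 genes an unadjusted p under 0.05). Whether replicate numbers pair the arrays was not settled. Deviations from the group means had correlations of 0.24, -0.30 and -0.25 for same-numbered arrays, and of 0.47 for AML 3 with CML 2. These correlations are tied to each other, since the deviations within a group sum to 0, so they cannot decide on pairing. With the replicate block 0 genes and 0 members passed in limma, with 3711 genes at an unadjusted p under 0.05 and Igf1r at an adjusted p of 0.0980. The count of members past the threshold was 1 as fitted, 0 with a floor of 8 (Igf1r at an adjusted p of 0.0721) and 0 to 1 with 1 array left out. Pathway genes past the threshold numbered 3 after median centring (Grb2, Insr and Stat5b), 2 with array weights (Grb2 and Insr) and 0 to 2 with 1 array left out, against 0 as fitted. Those 2, without CML 2, were Ptpn11, higher, and Foxo1, lower. The cause of these shifts was not tested. Median centring moved the median change of all genes from -0.11 to 0.021. The direction of Igfbp3, -0.0085 as fitted, turned to 0.12 after median centring, 0.036 after cyclic loess and 0.038 with array weights, and ran from -0.19 to 0.14 with 1 array left out. Igf2r ran from -0.16 to 0.24 with 1 array left out. The median change of the members ran from -0.082 to 0.13 with 1 array left out and was 0.32 over the 8 members left when the dimmer 50% of genes were dropped. The other 8 members kept their direction in each setting that held them, and Igf2 and Igfbp2 were absent from the brighter 50%. Direction could change only after rescaling of the arrays, with array weights or with 1 array left out. The remaining settings left the members' estimates unchanged by design. Dim signals near the array medians, such as those of Igf2 and Igfbp2, limit what can be said of these genes.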

Other observations

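Further genes with names of the same kind lie outside the family and the lists above, and they were picked for mention with their values known. Igf2os, an antisense transcript at the Igf2 locus, had log2 intensities of 4.29, 4.12 and 4.21 on AML 1, 2 and 3, against 4.44, 4.31 and 4.44 on CML 1, 2 and 3, a change of -0.18 ± 0.13 (SE; limma adjusted p = 0.405). Igfn1, an immunoglobulin-like and fibronectin domain protein of muscle, had 4.53, 4.59 and 3.96 on the AML arrays and 5.12, 4.65 and 5.28 on the CML arrays, a change of -0.66 ± 0.25 (SE; limma adjusted p = 0.203). Neither pair of groups overlapped, as for 31.3% of all genes, and neither gene passed. Igfl3 was dim on all arrays, at 2.46 to 2.68 in AML and 2.56 to 3.23 in CML.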
